A study of Mus musculus with 6 samples.

Results

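The glutathione S-transferases described here are 10 genes, Gsta1, Gsta2, Gsta3, Gsta4, Gstm1, Gstm2, Gstm3, Gstm6, Gstp1 and Gstt1, of the 18443 genes listed in the liver RNA-seq files of the study. They were chosen by name, by the gene symbol in the 6 deposited gene tables, with earlier results of these data known. The shares of all genes printed beside their calls are therefore a description, not an independent test of the family. All 10 were found and had reads in all 6 libraries. The study tested JT003, a peptide agonist of the adiponectin receptors AdipoR1 and AdipoR2, in male C57BL/6 mice (C57BL/6J in the study's methods), 6 to 8 weeks old at the start, with diet-induced steatohepatitis or carbon tetrachloride (CCl4) fibrosis. In the diet model, an SD library came from a chow-fed control (labelled CD), an HFD library from a liver labelled NASH after 16 weeks of a high-fat diet, and an HFD plus JT003 library from the same diet with the peptide for the last 4 weeks. In the CCl4 model, a corn oil library was the labelled normal control, a CCl4 library came from liver fibrosis after CCl4 (20 percent in corn oil, every 3 days for 6 weeks), and a CCl4 plus JT003 library had the peptide for 3 weeks. Each condition had 1 library, although the study used 6 mice per group. Whether a library pooled mice was not stated, and the labels did not say whether the HFD mice also received a methionine- and choline-deficient diet.

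Glutathione S-transferases join the tripeptide glutathione to electrophiles, among them drug metabolites, plant and mould toxins and the aldehydes that form when lipids are oxidised. The conjugates leave the hepatocyte through export pumps or are trimmed to mercapturates. The soluble enzymes form classes named by Greek letters, and the liver holds chiefly alpha (Gsta), mu (Gstm), pi (Gstp) and theta (Gstt) members. Several alpha and mu genes are known targets of the electrophile sensor NRF2 and of the receptors CAR, PXR and AHR, and in mouse liver the amount of several members differs between the sexes.

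The libraries held 19374236 to 20184539 expected counts each and listed 16082 to 16738 genes. Hepatocyte markers summed to between 89699 and 105880 CPM (counts scaled to a common library size) in all 6 libraries, and none of the 7 was at 0. This sum leans on the abundant Alb, which had 1178392 counts in HFD. The median log2 ratio of the 7 was 0.05 for HFD over SD and -0.34 for CCl4 over corn oil. It was -0.57 for CCl4 plus JT003 over corn oil. The libraries differed in the markers of other liver cells. Summed cholangiocyte markers ran from 26.5 to 50.1 CPM in the SD, HFD, HFD plus JT003 and corn oil libraries and stood at 156 and 143 CPM in the CCl4 and CCl4 plus JT003 libraries. Macrophage markers were lowest in the corn oil library, at 56.8 CPM against 133 to 291 CPM in the others. In bulk liver, fewer cells of a type and less RNA per cell cannot be told apart. A log2 ratio below compares counts scaled by TMM, and a gene was called when the adjusted p (exact conditional binomial test, Benjamini-Hochberg) was under 0.001 and the ratio was at least 1 in size on the log2 scale. With 1 library per condition the test compares libraries, not conditions, no difference has a replicate check, and the intervals printed cover counting error only. By the adjusted p alone, without the ratio threshold, 23.4% of all genes passed for HFD over SD, 26.7% for HFD plus JT003 over SD, 26.1% for CCl4 over corn oil, 24.0% for CCl4 plus JT003 over CCl4, 20.5% for CCl4 plus JT003 over corn oil and 28.7% for corn oil over SD. Scaling by total reads instead raised every log2 ratio by 0.12 for HFD over SD, 0.14 for HFD plus JT003 over SD, 0.23 for CCl4 over corn oil and 0.30 for CCl4 plus JT003 over corn oil, and moved those for corn oil over SD by -0.09. The share of all called genes that were higher then went from 54.3% to 65.5%, from 53.4% to 66.6%, from 66.4% to 81.9%, from 65.2% to 85.7% and from 40.3% to 29.9% in these comparisons.

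Several members are near copies of each other, so their counts depend on how shared reads were divided. The coding sequences of Gsta1 and Gsta2 were 97.9% identical, with 14 of 669 positions differing in the GENCODE M21 transcripts, and their first 90 coding bases were the same. Of the 826 windows of 50 bases in the Gsta1 transcripts, 741 (89.7%) also occurred in the transcripts of another gene, mostly the gene model Gm3776. The share was 64.2% for Gsta2, 62.3% for Gstp1 (with its copy Gstp2), 28.8% for Gstm3 and 23.1% for Gstm1, and it was 0 for Gsta3, Gsta4 and Gstt1. The mu genes Gstm1 and Gstm3, which were both called for CCl4, had 69 of 657 coding positions that differed (89.5% identity). The coding starts of these genes, 5′ to 3′, are shown to let the degree of likeness be seen. Capitals mark the 11 positions at which the mu pair differed, and the alpha pair had none.
Gsta1 and Gsta2, coding bases 1 to 90: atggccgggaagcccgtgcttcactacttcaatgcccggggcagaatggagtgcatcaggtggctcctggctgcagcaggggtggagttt
Gstm1, coding bases 1 to 90: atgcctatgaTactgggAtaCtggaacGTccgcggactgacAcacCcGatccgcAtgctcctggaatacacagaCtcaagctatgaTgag
Gstm3, coding bases 1 to 90: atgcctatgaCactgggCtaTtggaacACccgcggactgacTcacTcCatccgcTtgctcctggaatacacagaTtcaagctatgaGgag

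The promoters of the near copies Gsta1 and Gsta2 differed more than their coding sequences. RefSeq promoter windows of 300 bases (GRCm38.p6) were at hand for 9 of the 10 members. Each was searched on both strands for the antioxidant response element core bound by NRF2 (TGACNNNGC), the AP-1 site (TGANTCA, which reads the same on both strands) and the core of the xenobiotic response element bound by AHR (GCGTG). The 9 members had 12 windows. TGACNNNGC occurred in 1 of the 12 (Gsta3) and in 12.4% of all 32851 promoters. Other forms of the antioxidant response element were not searched. The AP-1 site occurred in 1 of the 12 (Gstp1) and in 7.81% of all promoters. GCGTG occurred in 5 of the 12, from 4 members (Gsta1, Gsta2, Gstm1 and Gstp1), and in 32.4% of all promoters. These matches describe the letters of the windows and are not evidence of binding. Promoters are printed here in the direction of transcription, from 250 bases before to 10 bases after the start site. They are those of the members with the largest and next largest rise in each model. These were Gsta1 and Gsta3 for HFD over SD, and Gstm3 and Gsta1 for CCl4 over corn oil. Those of Gsta2, as the near copy of Gsta1, and of Gstp1, the most abundant member, are also printed. Capitals mark the motif matches. The Gsta1 and Gsta2 windows were 77.9% identical over 249 aligned bases, and the Gstm3 window had no match.
Gsta1 promoter, chr9:78230419-78230678, plus strand: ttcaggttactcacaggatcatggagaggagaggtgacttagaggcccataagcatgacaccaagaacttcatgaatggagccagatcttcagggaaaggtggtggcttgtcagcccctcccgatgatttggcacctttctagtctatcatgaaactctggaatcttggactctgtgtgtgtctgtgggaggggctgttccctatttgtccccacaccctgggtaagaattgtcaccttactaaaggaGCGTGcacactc
Gsta2 promoter, chr9:78347136-78347395, minus strand: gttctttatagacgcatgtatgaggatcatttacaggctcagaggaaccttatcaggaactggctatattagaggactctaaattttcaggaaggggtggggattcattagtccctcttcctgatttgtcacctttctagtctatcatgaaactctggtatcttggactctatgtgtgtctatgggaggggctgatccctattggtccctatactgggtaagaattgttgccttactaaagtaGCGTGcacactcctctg
Gsta3 promoter, chr1:21240335-21240594, plus strand: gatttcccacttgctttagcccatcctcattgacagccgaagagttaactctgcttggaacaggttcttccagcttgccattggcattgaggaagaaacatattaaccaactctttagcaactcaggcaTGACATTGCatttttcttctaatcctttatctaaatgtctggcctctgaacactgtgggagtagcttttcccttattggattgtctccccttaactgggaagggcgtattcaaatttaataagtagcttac
Gstm3 promoter, chr3:107969165-107969424, minus strand: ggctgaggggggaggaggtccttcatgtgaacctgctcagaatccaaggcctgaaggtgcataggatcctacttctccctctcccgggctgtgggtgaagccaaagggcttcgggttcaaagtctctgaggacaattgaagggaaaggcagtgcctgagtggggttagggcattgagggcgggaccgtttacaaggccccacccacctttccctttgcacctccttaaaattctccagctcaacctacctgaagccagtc
Gstp1 promoter, chr19:4037903-4038162, minus strand: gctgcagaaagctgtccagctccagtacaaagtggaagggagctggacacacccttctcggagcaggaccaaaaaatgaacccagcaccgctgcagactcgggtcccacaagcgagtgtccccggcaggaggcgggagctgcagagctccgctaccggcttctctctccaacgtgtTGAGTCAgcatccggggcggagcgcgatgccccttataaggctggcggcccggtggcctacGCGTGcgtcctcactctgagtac

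On the length-corrected FPKM scale, Gstp1 was the most abundant member in 5 of the 6 libraries and Gstm1 in the CCl4 library. Gstp1, the pi class enzyme and the main soluble transferase of male mouse liver, stood at 3915.54 FPKM in SD, 3373.81 in HFD and 2410.87 with JT003 in the diet model. In the CCl4 model it stood at 4624.57 FPKM in corn oil, 3287.01 in CCl4 and 2447.40 with JT003. Its highest level was 1.92 times its lowest, the narrowest range of the 10, and both JT003 libraries lay below every other library. Gstm1, the most abundant mu class enzyme, ran from 503.43 FPKM in HFD plus JT003 to 3544.14 in CCl4, and Gsta3, which detoxifies the aflatoxin epoxide in mice, ran from 175.03 in SD to 828.69 in HFD plus JT003. Gstt1, a theta class enzyme that acts on small halogenated molecules, ran from 76.12 in SD to 186.28 in CCl4, a 2.45-fold range. Gsta1 ran from 0.04 to 107.29 FPKM, its lowest level resting on 1 count, and summed with its near copy Gm3776 from 2.06 to 166.99, an 81.1-fold range. The mu class gene Gstm3 ran from 5.50 to 497.05, a 90.4-fold range. The CCl4 library held the highest level of 7 of the 10 members. The exceptions were Gsta2, highest in CCl4 plus JT003, Gsta3, highest in HFD plus JT003, and Gstp1, highest in corn oil.

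**Figure D1:**
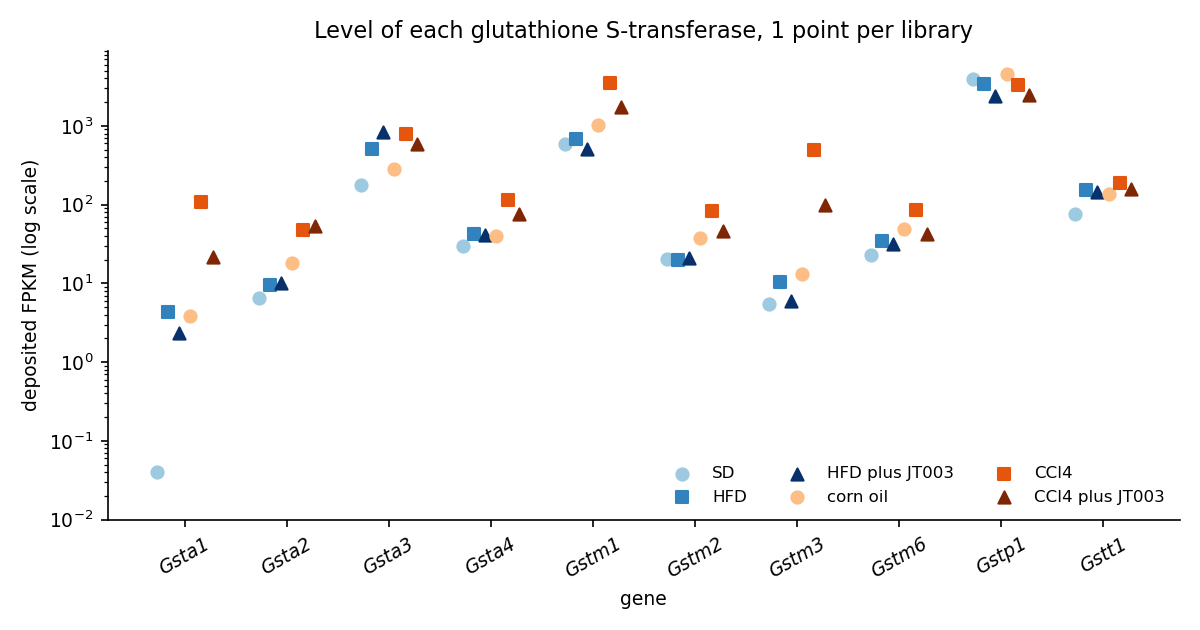
Deposited FPKM (log axis) of each of the 10 members, 1 point for each of the 6 libraries. Gstp1 spans 2410.87 to 4624.57 FPKM, Gstm3 stands at 13.13 in corn oil and 497.05 in CCl4, and Gsta1 spans 0.04 in SD to 107.29 in CCl4.

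The makeup of the family on the FPKM scale differed between the libraries. Gstp1 made up 81.0% of the summed FPKM of the 10 members in SD, 69.7% in HFD and 60.3% with JT003, and 74.1%, 37.6% and 46.6% in the corn oil, CCl4 and CCl4 plus JT003 libraries. The share of Gstm1 was 12% to 16.5% in the diet model and corn oil libraries, 40.6% in CCl4 and 32.7% in CCl4 plus JT003. Gsta3 made up 3.62%, 10.6% and 20.7% in the SD, HFD and HFD plus JT003 libraries. The ratio of Gstm1 to Gstp1 was thus between 0.149 and 0.222 in 4 libraries, 1.08 in CCl4 and 0.701 in CCl4 plus JT003. Together the 10 members took 0.399%, 0.432% and 0.381% of all counts in the SD, HFD and HFD plus JT003 libraries, and 0.540%, 0.927% and 0.533% in the corn oil, CCl4 and CCl4 plus JT003 libraries.

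**Figure D2:**
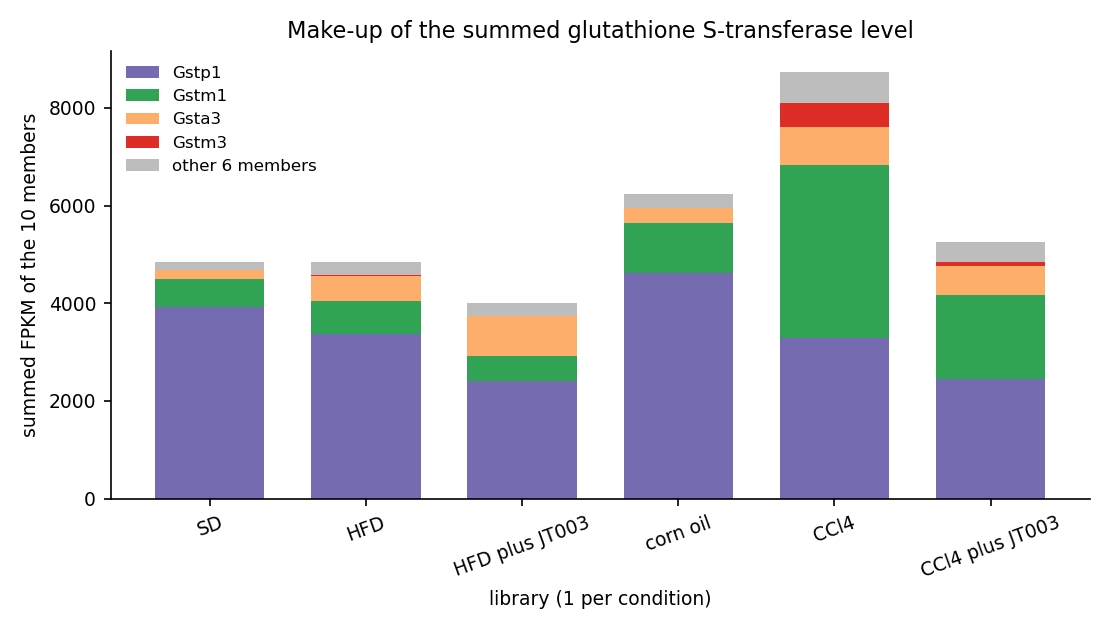
Summed FPKM of the 10 members as 1 stacked bar per library, split into Gstp1, Gstm1, Gsta3, Gstm3 and the other 6 members. The CCl4 bar is the tallest at 8731.05 FPKM, with 40.6% from Gstm1 and 37.6% from Gstp1, while Gstp1 makes up 81.0% of the SD bar.

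The high-fat diet was compared with chow by setting the HFD library against the SD library. Gsta3 rose 2.70-fold and Gsta1 rose from a near-absent level, and no member fell by the call rule. With 2 of 10 members called, both higher, against 5.37% of all 16972 genes tested (2.92% higher, 2.46% lower), the median log2 ratio of the members was 0.44 and that of all genes was -0.00. Gsta3 had 4856 counts in SD and 13989 in HFD, and its log2 ratio was 1.43 (95% interval 1.39 to 1.48). Gsta1, an alpha class enzyme known for induction by electrophiles, had 1 count in SD and 73 in HFD, a log2 ratio of 4.58 (3.58 to 11.42), the wide interval reflecting the single count. Gstt1 was below the threshold, with 1588 and 3107 counts and a log2 ratio of 0.88 (0.79 to 0.97), as was Gstm3, with 132 and 242 counts and a log2 ratio of 0.77 (0.47 to 1.10). Gstp1, with 57082 and 48123 counts, had a log2 ratio of -0.34 (-0.36 to -0.32), and Gstm2 one of -0.14 (-0.33 to 0.06), whose interval includes 0. The log2 ratios of Gsta2, Gsta4, Gstm1 and Gstm6 lay between 0.10 and 0.44. When a biological coefficient of variation (BCV) of 0.2 between libraries was assumed, 1 member stayed past the call rule (Gsta1), and with 0.4 none did. Summed stellate cell and myofibroblast markers stood at 199 CPM in HFD against 67.5 CPM in SD. Of these 7 markers, 4 were called higher, beside 2.92% of all genes, and the others were not called. The part of these markers in the result was not tested.

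JT003 in the diet model was read from the HFD plus JT003 library against the HFD library. No member was called, against 1.63% of all genes (0.743% higher, 0.884% lower). Dropping the ratio threshold, 4 of 10 members passed the adjusted p, Gsta3 higher and Gstm1, Gstm3 and Gstp1 lower, as did 14.2% of all genes. Gsta3 had 13989 counts in HFD and 22770 in HFD plus JT003, a log2 ratio of 0.68 (0.65 to 0.71). Gstp1 had 48123 and 34564 counts, a log2 ratio of -0.50 (-0.52 to -0.48), and Gstm1 had 17471 and 12991, a log2 ratio of -0.45 (-0.48 to -0.42). For Gstm3 the counts were 242 and 139, and for Gsta1 73 and 39, with log2 ratios of -0.81 (-1.13 to -0.52) and -0.89 (-1.53 to -0.35). The intervals of Gsta2 (log2 ratio 0.06), Gsta4 (-0.04) and Gstm2 (0.07) included 0, and those of Gstm6 (-0.16) and Gstt1 (-0.10) lay just below it. The median over the members was -0.13, and 3 of 10 ratios were above 0.

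Set against SD instead, the HFD plus JT003 library had 2 members called, both higher, with 5.93% of all genes called (3.16% higher, 2.76% lower). Gsta3 stood 2.11 higher on the log2 scale (2.07 to 2.16), with 4856 and 22770 counts, and Gsta1, with 1 and 39 counts, had a log2 ratio of 3.70 (2.61 to 10.51). Gstp1 had a log2 ratio of -0.84 (-0.86 to -0.82), close to the threshold. This comparison shares its libraries with the preceding pair and adds no independent measurement.

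The Gsta1 values in the diet model depended on how its reads were divided. Gm3776, which shares most of its sequence with Gsta1, had 35, 93 and 14 counts in the SD, HFD and HFD plus JT003 libraries and 22, 1029 and 227 counts in the corn oil, CCl4 and CCl4 plus JT003 libraries. Summed with Gm3776, Gsta1 had a log2 ratio of 2.06 (1.59 to 2.68) when HFD was set over SD. For HFD plus JT003 over SD it was 0.42 (-0.19 to 1.10). Against the HFD library, the summed log2 ratio of the JT003 library was -1.63 (-2.14 to -1.22). The call against SD in the JT003 library was thus lost, and a lower call appeared against HFD. In the CCl4 model the sum gave 4.75, -2.30 and 2.45 for CCl4 over corn oil, CCl4 plus JT003 over CCl4 and CCl4 plus JT003 over corn oil, against 4.50, -2.36 and 2.14 for Gsta1 alone. Gstp2 had 250 to 653 counts against at least 34289 for Gstp1, so its share of the pi class reads was small in every library.

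**Figure D3:**
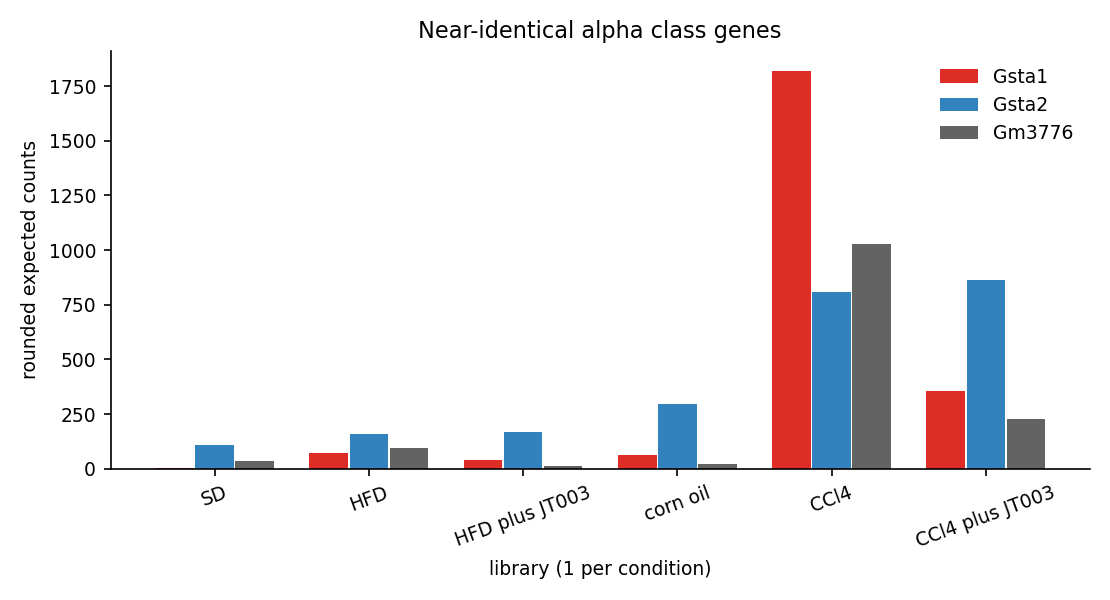
Rounded expected counts of Gsta1, Gsta2 and the near copy Gm3776 by library. Gsta1 has 1 count in SD where Gm3776 has 35, and both are highest in the CCl4 library, at 1821 and 1029 counts.

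CCl4 injury was read from the CCl4 library against the corn oil library. With 6 of 10 members called, all higher, against 4.76% of all genes called higher, 2.41% lower and 7.18% in both directions, the alpha genes Gsta1, Gsta2, Gsta3 and Gsta4 and the mu genes Gstm1 and Gstm3 rose. The members' median log2 ratio was 1.18, against 0.00 over all genes. Gstm3 rose 31.9-fold, from 304 to 11923 counts, with a log2 ratio of 5.0 (4.84 to 5.17). Gsta1 rose 22.7-fold, from 64 to 1821 counts, with a log2 ratio of 4.50 (4.18 to 4.93).

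Among the abundant members, Gstm1 rose 2.92-fold, from 26013 to 92895 counts (log2 ratio 1.55, 1.53 to 1.57). Gsta3 rose 2.31-fold, from 7668 to 21596 counts (1.21, 1.17 to 1.24). Gsta4, which conjugates the lipid peroxidation aldehyde 4-hydroxynonenal, rose 2.41-fold, from 749 to 2205 counts (1.27, 1.15 to 1.39), and Gsta2 rose 2.22-fold, from 297 to 807 counts (1.15, 0.96 to 1.35). The other mu genes stayed under the threshold. Gstm2 had 817 and 1838 counts, a log2 ratio of 0.88 (0.76 to 1.00), and Gstm6 had 1092 and 1965, a log2 ratio of 0.56 (0.45 to 0.67). Gstp1 went the other way without reaching the threshold, with 65032 and 47864 counts and a log2 ratio of -0.73 (-0.75 to -0.71). Gstt1 had a log2 ratio of 0.20 (0.13 to 0.27). Summed over the genes of a class in the files, the log2 ratios were 1.30 for alpha, 1.61 for mu, -0.73 for pi and 0.01 for theta.

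JT003 in the CCl4 model was read from the CCl4 plus JT003 library against the CCl4 library. Of the 10 members, 4 fell (Gsta1, Gstm1, Gstm3 and Gstm6) and none rose, against 2.51% of all genes called lower, 1.91% higher and 4.42% in either direction. The members' median log2 ratio was -0.78, and 1 of 10 ratios was above 0. Gstm3 went from 11923 to 2264 counts, 5.30-fold lower (log2 ratio -2.41, -2.47 to -2.34). Gsta1 went from 1821 to 355 counts, 5.14-fold lower (-2.36, -2.54 to -2.20). Both remained above the corn oil library, where they had 304 and 64 counts. Gstm1 went from 92895 to 43276 counts, 2.16-fold lower (-1.11, -1.13 to -1.10), and Gstm6 from 1965 to 932, 2.12-fold lower (-1.09, -1.20 to -0.97).

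The other members were not called. Gstm2 had 1838 and 980 counts, a log2 ratio of -0.92 (-1.03 to -0.81), Gsta4 had 2205 and 1421 counts, -0.64 (-0.74 to -0.55), and Gstp1 had 47864 and 34289 counts, -0.49 (-0.51 to -0.47). Gsta3 (-0.47, -0.50 to -0.44) and Gstt1 (-0.30, -0.37 to -0.23) had smaller ratios. Gsta2, with 807 and 865 counts, was the exception, at 0.09 (-0.05 to 0.23), an interval that includes 0. The FPKM ratio of Gsta1 to Gsta2 was 0.213, 2.24 and 0.407 in the corn oil, CCl4 and CCl4 plus JT003 libraries.

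Against corn oil, the CCl4 plus JT003 library had 3 members called higher and 1 lower, with 4.95% of all genes called (3.23% higher, 1.72% lower). Gstm3 (log2 ratio 2.59, 2.42 to 2.78), Gsta1 (2.14, 1.79 to 2.58) and Gsta2 (1.24, 1.05 to 1.44) were higher. Gstp1, with 65032 and 34289 counts, was 2.33-fold lower (-1.22, -1.24 to -1.20). Gstm1 had a log2 ratio of 0.44 (0.41 to 0.46) and Gstm2 one of -0.04 (-0.17 to 0.10). With scaling by total reads every log2 ratio of this comparison lay 0.30 higher, which put Gsta3 past the threshold at 1.04 and Gstp1 inside it at -0.92.

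**Figure D4:**
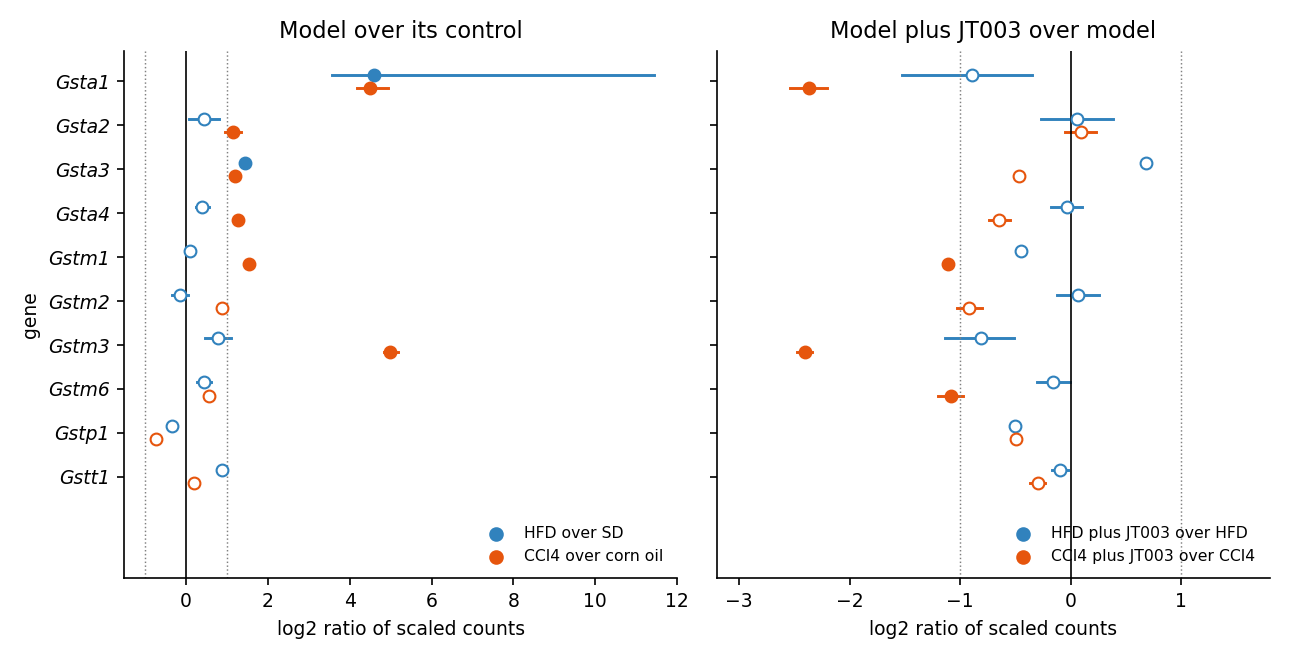
Log2 ratios of scaled counts of the 10 members with 95% counting intervals, the injury comparisons of both models in the left panel and the JT003 comparisons in the right, with filled points for called members and dotted lines at a log2 ratio of 1 in either direction. Gstm3 and Gsta1 stand highest for CCl4 over corn oil (5.0 and 4.50) and lowest for CCl4 plus JT003 over CCl4 (-2.41 and -2.36), and Gstp1 lies below 0 in all 4 comparisons shown.

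The size of the CCl4 result depended on the CCl4 material. The authors' table of comparisons also holds a pooled CCl4 column whose total is 2.97 times that of the CCl4 library, and the counts left after subtracting the library were used as other CCl4 material. That this column includes the library was inferred from the values. Gstm3 stood at 592 CPM in the CCl4 library and 387 in the other material, against 15.7 in corn oil and 117 in CCl4 plus JT003. Gsta1 stood at 90.3 and 55.6 CPM, against 3.30 and 18.3. For these members, both CCl4 values were thus above both other libraries, and the calls against corn oil and against CCl4 plus JT003 held with the other material. Gstm1 stood at 4609 CPM in the library and 2537 in the other material, against 1340 in corn oil and 2234 in CCl4 plus JT003. With the other material, the log2 ratio over corn oil of Gstm1 was 0.60, of Gsta2 0.51, of Gsta3 0.88 and of Gsta4 0.58, none of them called, and Gstp1 was called lower at -1.13. For CCl4 plus JT003 over CCl4, Gstm1 then had a log2 ratio of -0.17 and Gstm6 one of -0.59, neither called. An assumed BCV of 0.2 also left Gsta1 and Gstm3 as the only members called in both comparisons. At 0.4 they were still called for CCl4 over corn oil, and no member was for CCl4 plus JT003 over CCl4.

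**Figure D5:**
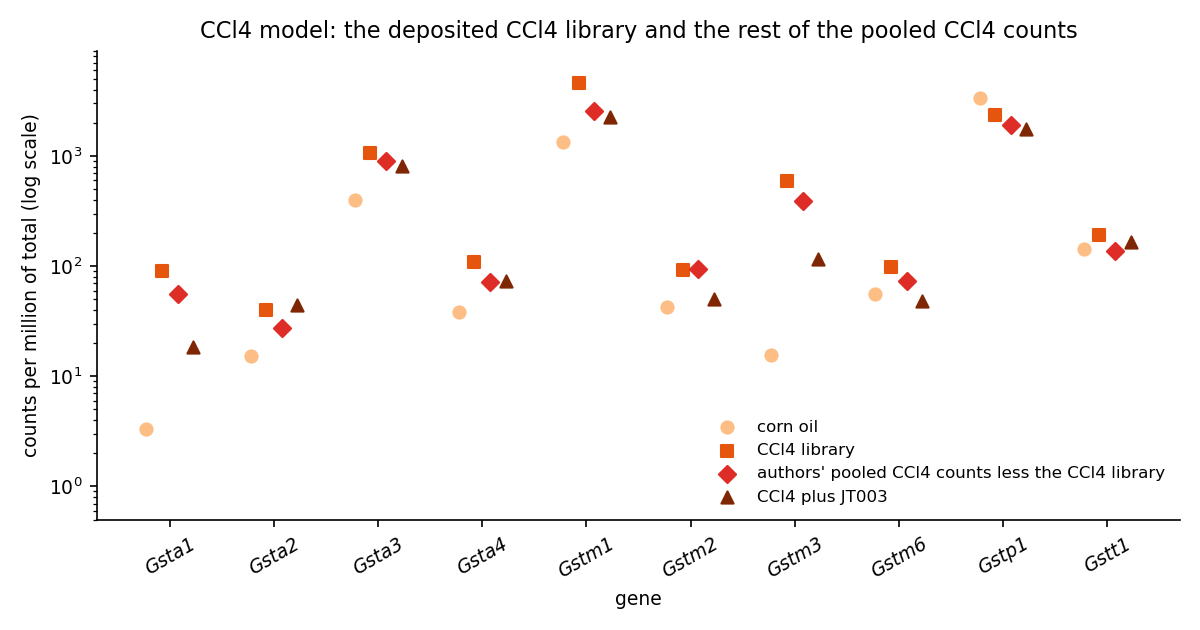
CPM (log axis) of the 10 members in the corn oil, CCl4 and CCl4 plus JT003 libraries and in the other CCl4 material (the authors' pooled CCl4 counts less the CCl4 library). For Gstm3 and Gsta1 both CCl4 values, 592 and 387 CPM and 90.3 and 55.6 CPM, lie above corn oil and CCl4 plus JT003.

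The markers of other cells moved in the same comparisons. Of the 5 cholangiocyte markers, 4 were called higher for CCl4 over corn oil, and of the 6 macrophage markers 5 were. Over all genes, 4.76% were called higher and 2.41% lower in that comparison, and 1.91% and 2.51% for CCl4 plus JT003 over CCl4. Of the 7 stellate cell and myofibroblast markers, 3 were called higher for CCl4 over corn oil and 3 lower for CCl4 plus JT003 over CCl4, and their sum stood at 81.1 CPM in corn oil, 351 in CCl4 and 169 with JT003. It was thus highest in CCl4 and between the others with JT003, as Gstm3 and Gsta1 were. Summed cholangiocyte markers stood at 156 CPM in CCl4 and 143 CPM in CCl4 plus JT003, where Gstm3 and Gsta1 were 5.30-fold and 5.14-fold lower than in CCl4. Of the 5, however, 1 was called lower for CCl4 plus JT003 over CCl4, with a list median of -0.33. For CCl4 plus JT003 over corn oil, 2 of them were called higher, beside 3.23% of all genes. Of 16 genes known to be higher in male than in female mouse liver, 14 were called lower for CCl4 over corn oil, with a list median of -3.0 on the log2 scale. For CCl4 plus JT003 over CCl4, 3 of that list were called higher and 1 lower. The companion list of 17 genes known to be higher in females had 6 called higher and 3 lower for CCl4 over corn oil (median 0.30), and 5 higher and 1 lower for CCl4 plus JT003 over CCl4 (median -0.23). The part of these changes in the transferase values was not tested.

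The 2 control libraries also differed in the family. Corn oil over SD had 5 members called, all higher, against 2.18% of all genes called higher, 3.23% lower and 5.41% in both directions. All 10 ratios were above 0, with a median of 0.98. Gsta1 had 1 and 64 counts (log2 ratio 4.56, 3.62 to 11.48), Gsta2 110 and 297 (1.56, 1.26 to 1.91), and Gstm3 132 and 304 (1.34, 1.05 to 1.66). Gstm6 stood at 1.18 (1.03 to 1.33) and Gstm2 at 1.01 (0.84 to 1.18). Summed with Gm3776, Gsta1 had a log2 ratio of 1.34 (0.81 to 1.99). The 64 counts of Gsta1 in this control are close to its 73 counts in HFD.

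Side by side, the models differed by member. The injury log2 ratio, CCl4 over corn oil less HFD over SD, was 4.22 higher for Gstm3 (3.88 to 4.57), 1.45 for Gstm1 (1.41 to 1.48), 1.02 for Gstm2 (0.79 to 1.24), 0.87 for Gsta4 (0.67 to 1.06) and 0.72 for Gsta2 (0.32 to 1.11). It was lower for Gstt1, at -0.68 (-0.79 to -0.56), for Gstp1, at -0.39 (-0.42 to -0.37), and for Gsta3, at -0.23 (-0.29 to -0.17). The interval of Gstm6, -0.08 to 0.31, included 0. Each injury ratio has its own control, and the 2 controls differed, so these differences also hold the gap between the controls. Gstt1, for example, stood at 84.2 CPM in SD and 155 in HFD, and at 163 in corn oil and 183 in CCl4. With the other CCl4 material, the injury difference was 3.53 for Gstm3 and 0.97 for Gstm2, but 0.50 for Gstm1, 0.17 for Gsta4 and 0.08 for Gsta2, and it was -0.85 for Gsta1, -0.55 for Gsta3, -0.80 for Gstp1 and -1.26 for Gstt1. Of these, only the values of Gstm2 and Gsta1 lay inside their counting intervals. For the other members named, the intervals do not cover the spread between the 2 CCl4 values. For Gsta1 alone the interval, -1.78 to 1.62, was too wide to show a difference. Summed with Gm3776, Gsta1 had injury log2 ratios of 4.75 (4.47 to 5.11) in the CCl4 model and 2.06 (1.59 to 2.68) in the diet model. These counting intervals did not overlap. The JT003 log2 ratio in the CCl4 model less that in the diet model was -1.59 for Gstm3 (-1.90 to -1.29), -1.47 for Gsta1 (-2.04 to -0.90) and -1.15 for Gsta3 (-1.19 to -1.10). Summed with Gm3776, the JT003 log2 ratios of Gsta1 were -2.30 in the CCl4 model and -1.63 in the diet model. They lay closer together than those of Gsta1 alone, -2.36 and -0.89. Gsta3 had ratios of opposite sign, 0.68 in the diet model and -0.47 in the CCl4 model. Gstp1 had nearly the same JT003 ratio in both, -0.50 and -0.49, with a difference of 0.01 (-0.02 to 0.04). With the other CCl4 material, the JT003 difference was -0.90 for Gstm3, -0.69 for Gsta1, -0.83 for Gsta3 and 0.41 for Gstp1, and the CCl4 model ratio of Gsta3 was -0.15. No test over animals was possible for any of these differences.

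Relatives outside the 10 were read the same way. Of 13 other cytosolic and mitochondrial transferase genes tested for CCl4 over corn oil, 1 was called higher and none lower, with a median log2 ratio of -0.14, beside 7.18% of all genes called. That gene was Gstcd, with 26 and 98 counts. For CCl4 plus JT003 over CCl4, 2 were called lower, the mu gene Gstm4 (log2 ratio -1.37) and Gstcd (-1.95). For HFD over SD, 2 of 12 were called, the theta genes Gstt3 (1.25) and Gstt2 (-1.12), in opposite directions, beside 5.37% of all genes. Of the 6 microsomal transferase genes, which belong to a separate membrane family, 2 were called higher for CCl4 over corn oil, Mgst3 (1.62, from 135 to 513 counts) and Ptges (2.56), and Ptges was called lower with JT003 (-1.78). For CCl4 plus JT003 over CCl4, 4.42% of all genes were called.

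Of 12 genes that make or recycle glutathione, 2 rose and 3 fell for CCl4 over corn oil, with a median of 0.15. Gclc, the catalytic subunit of the rate-limiting glutamate-cysteine ligase, rose from 2779 to 8553 counts (log2 ratio 1.33), and Gss, glutathione synthetase, from 1362 to 3387 counts (1.02). Mat1a, Cth and Bhmt, which carry methionine sulfur towards cysteine or back, fell (-1.62, -1.19 and -1.72). For HFD over SD, none of the 12 rose and 3 fell, Mat1a (-1.72), Cth (-1.43) and Oplah (-1.21), and for CCl4 plus JT003 over CCl4 none was called. Among 12 genes of glutathione breakdown and mercapturate formation, 1 was called lower for CCl4 over corn oil (Nat8f2, -1.06) and 1 higher for HFD over SD (Chac1, 1.56). Of the 7 conjugate exporters none was called for CCl4 over corn oil, and Abcc3 rose for HFD over SD (1.15). Over all genes, 7.18% were called for CCl4 over corn oil, 5.37% for HFD over SD and 4.42% for CCl4 plus JT003 over CCl4.

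Among 25 NRF2 target genes outside the 10, 8 were called higher and 1 lower for CCl4 over corn oil, with a median log2 ratio of 0.68. The pentose phosphate enzymes G6pdx (1.77) and Pgd (1.69), Gclc, Hmox1 (1.20) and Ces2g (1.19) were among them, and Cyp2a5 fell (-2.27). With JT003, 1 rose (Cyp2a5, 1.97) and 2 fell (Pgd, -1.43, and Cbr3, -1.30, with 81 and 32 counts), with a median of -0.50. For HFD over SD, 2 rose (Cyp2a5, 3.09, and Abcc3) and none fell, with a median of 0.10. Beside these counts, 7.18%, 4.42% and 5.37% of all genes were called in the 3 comparisons, in this order. Nfe2l2, which encodes NRF2, had 806 counts in corn oil and 2254 in CCl4 (log2 ratio 1.19, called), and its log2 ratio with JT003 was -0.19. Keap1, its inhibitor, had log2 ratios of 0.03 and -0.17 in these comparisons.

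The receptors that drive drug-metabolising genes had other patterns. Nr1i3, which encodes CAR, rose for HFD plus JT003 over HFD, from 2139 to 5387 counts (log2 ratio 1.31), and had log2 ratios of -0.79 for CCl4 over corn oil and 0.87 for CCl4 plus JT003 over CCl4. Ahr rose for HFD over SD, from 335 to 893 counts (1.32), and had log2 ratios of -0.00 and -0.46 in the CCl4 model. Nr1i2, which encodes PXR, had log2 ratios of -0.50 and 0.53 in the diet model and 0.07 and 0.06 in the CCl4 model, none called. Of 22 known targets of these receptors, 4 rose and 1 fell for HFD over SD (median 0.66), and of 21 tested for JT003 in the diet model 2 rose and none fell (median 0.23). Of the 22, 5 rose and 1 fell for CCl4 over corn oil (median 0.42), and 2 rose and 3 fell for CCl4 plus JT003 over CCl4 (median -0.41). The shares of all genes called in these comparisons were 5.37%, 1.63%, 7.18% and 4.42%, in the same order.

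Across the 6 libraries, each member was also set beside the others by the root mean square difference of centred log2 values, a description over 6 points that share depth and scaling. Gstm1 and Gstm2 were nearest to each other, at 0.291, and Gstm6 was nearest to Gstm2, at 0.303. Gsta4 was nearest to the mu gene Gstm2 as well, at 0.331, rather than to another alpha gene. Gsta1 and Gstm3 were each other's nearest, but at a distance of 1.29. Of 8308 genes outside the family with at least 100 counts in every library, Spc24 (0.268), Smc4 (0.270), Angptl8 (0.280), Atpif1 (0.331) and H2afz (0.371) lay nearest to the mean pattern of the members. This mean leaned on Gsta1 and Gstm3, whose centred values in CCl4 were 4.32 and 4.26, against a mean of 1.60. The other members lay between -0.06 and 1.70 there. Gsta1 also stood at -4.81 in SD, so the mean does not stand for each member. Spc24, a kinetochore component, had 124, 198, 229, 319, 714 and 388 counts in SD, HFD, HFD plus JT003, corn oil, CCl4 and CCl4 plus JT003, with its highest count in CCl4.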

How the data were processed

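Liver RNA from 6 libraries, 1 per condition, was sequenced on a BGISEQ-500. Per the labels, the authors' processing notes name HISAT, Bowtie2, RSEM and mm9, with no versions given. The deposited gene tables hold expected counts, estimated by RSEM, which divides reads shared by several genes, and FPKM computed by the authors from these counts and gene lengths. Deposited comparison tables hold the authors' fold changes and p-values, which were not used, and 7 of their expression columns were not used here. A pooled CCl4 column, named as the authors' pooled counts, served for 1 added alternative.

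Expected counts were rounded to whole numbers. Scaling used TMM in edgeR 4.0.16 under R 4.3.3, within each model of 3 libraries, or over all 6 for corn oil over SD. Each of 7 comparisons set the reads of 2 libraries against each other by an exact conditional binomial test (two-sided) with Benjamini-Hochberg adjustment over all genes with a read (scipy 1.17.1, Python 3.11.15). A call needed an adjusted p under 0.001 and a log2 ratio of 1 or more in size with a prior count of 2. Intervals are 95% Clopper-Pearson. No replicates existed, so the edgeR and DESeq2 models that estimate the spread were not run, and DESeq2 1.42.0 served for size factors alone. The procedure was tested on simulated data that held counting error only. They had no spread between animals, so the test could not show whether calls hold across animals. Promoter letters come from RefSeq (GRCm38.p6), coding letters from GENCODE M21, and no mm9 coordinate is given. Libraries held 19374236 to 20184539 counts.

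The members and gene lists were chosen with earlier results of these data known. All 10 members are named in every comparison. From the lists, the genes that could be named were the called genes with 100 or more counts in the higher library, up to 6 per list and comparison by size, and 5 regulators always. Names are given for the transferase, glutathione and NRF2 lists, not in every comparison, and counts alone for the marker, sex-biased and receptor target lists. Gstcd, Ptges and Cbr3 were named after their values were seen. Alternatives covered scaling, prior count, filters, thresholds, FPKM, an assumed spread, class sums and near-copy sums.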

Additional observations from a re-analysis of the deposited data

Results flagged for a closer look

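Gsta3, the alpha class enzyme that detoxifies the aflatoxin epoxide in mice, had JT003 log2 ratios of opposite sign in the models. It stood at 0.68 for HFD plus JT003 over HFD, from 13989 to 22770 counts, and at -0.47 for CCl4 plus JT003 over CCl4, from 21596 to 15739 counts. The CCl4 ratio less the diet ratio was -1.15 (95% counting interval -1.19 to -1.10). With the other CCl4 material in place of the CCl4 library, the CCl4 ratio was -0.15 and the difference -0.83. Neither ratio was called, and with 1 library per condition the difference was not tested over animals.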

How the results depend on the processing

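DESeq2 size factors, TMM over all 6 libraries and a prior count of 0.5 kept the direction and the call of every member in the comparisons they were run for. Without the ratio threshold, the called members numbered 8 for HFD over SD, 4 for HFD plus JT003 over HFD, 6 for HFD plus JT003 over SD, 10 for CCl4 over corn oil, 9 for CCl4 plus JT003 over CCl4, 8 for CCl4 plus JT003 over corn oil and 10 for corn oil over SD, beside 14.2% to 28.7% of all genes. Assuming a biological coefficient of variation (BCV) of 0.2, they numbered 1 for HFD over SD, 2 for each of CCl4 over corn oil, CCl4 plus JT003 over CCl4 and CCl4 plus JT003 over corn oil, and 1 for corn oil over SD. At a BCV of 0.4 they numbered 2 for CCl4 over corn oil and 0 for HFD over SD, HFD plus JT003 over SD, CCl4 plus JT003 over CCl4, CCl4 plus JT003 over corn oil and corn oil over SD. A minimum of 100 counts left 1 for each of HFD and HFD plus JT003 over SD, since Gsta1 was then not tested. The authors' pooled CCl4 counts gave 2 for CCl4 over corn oil and 2 for CCl4 plus JT003 over CCl4, and these counts less the CCl4 library, an alternative chosen after seeing the data, gave 3 and 2.

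Directions turned for members not called, and the cause was not tested except where summing genes is itself the change. Summing the alpha class gave Gsta1 and Gsta4 0.64 for HFD plus JT003 over HFD and Gsta2 -0.53 for CCl4 plus JT003 over CCl4, but Gsta3 held 22770 of the 23766 alpha counts with HFD plus JT003, so this sum is no check on the other alpha genes. Summing the mu class gave Gstm2 0.093 for HFD over SD, -0.44 for HFD plus JT003 over HFD and 0.40 for CCl4 plus JT003 over corn oil, and Gstm6 -0.35 for HFD plus JT003 over SD and 0.40 for CCl4 plus JT003 over corn oil. Gstm1 held 12991 of the 15281 mu counts with HFD plus JT003, so the mu sum is no check on Gstm2 or Gstm6 either. Summing the theta class gave Gstt1 0.015 for HFD plus JT003 over HFD. Scaling by total reads gave Gstm2 0.26 and Gstt1 0.20 for CCl4 plus JT003 over corn oil, and Gstm2 0.068 and Gstm3 0.10 for HFD plus JT003 over SD. On the log2 scale of FPKM plus 1 these were 0.26, 0.21, 0.066 and 0.084, and of FPKM plus 0.1 they were 0.27, 0.21, 0.069 and 0.10. With the pooled CCl4 counts Gstt1 had -0.16 for CCl4 over corn oil and 0.063 for CCl4 plus JT003 over CCl4, and with the pooled counts less the library -0.38 and 0.28, and Gsta4 0.044 for the latter. Summing Gsta1, Gsta2, Gm3776 and Gm10639, chosen after seeing the data, gave Gsta2 -0.57 for HFD plus JT003 over HFD and -1.35 for CCl4 plus JT003 over CCl4.

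Scaling by total reads put Gstt1 at 1.00 for HFD over SD and Gstm2 at 1.11 for CCl4 over corn oil, past the threshold, and Gstm2 at 0.91 for corn oil over SD, under it. No paired analysis was possible because each condition had 1 library, and for the same reason no library could be left out. The value of Gsta1 in SD was an expected count of 0.74, rounded to 1, where its near copy Gm3776 had 35 counts. Whether depth or the division of shared reads set this value was not tested.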
